A study of Danio rerio with 4 samples.

Results

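At the shield stage, 304 of the 14455 cells in the scRNA-seq data were chosen by their depth and their mRNAs. Each carried *twist1a* with at least 2 other genes of involuted mesoderm and had no value above 0.5 for *noto*, *sox32*, *krt92* or *frzb*. Another 1450 cells met the rule apart from carrying an excluded gene. The 304 cells are called *twist1a* mesoderm cells here. They had the *ripply1* mRNA at 5.77 times the level in the remaining cells, and with it a set of paraxial mesoderm genes, fibronectin, versican, a retinol dehydrogenase and *notch2*. Between siblings and M*rbm24a* embryos their share of cells did not differ beyond the spread between libraries. Within them 7 of 6871 genes (0.102%) passed the test, among them the Notch target *her15.1* and the mesoderm factor *mespab*, both lower in M*rbm24a*. All 7 differed in the same direction in the remaining cells, and the count of genes rested on single libraries.

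During gastrulation, mesoderm cells at the margin of the zebrafish embryo turn inward beneath the ectoderm and then migrate. Twist and Snail proteins are transcription factors of mesenchymal, motile cells, Mesp proteins act early in the paraxial and cardiac mesoderm, and Foxc1a is needed for somite formation. Cxcl12 chemokines and Apelin guide cells that carry their receptors, and fibronectin forms the matrix over which mesoderm cells spread.

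The libraries came from whole embryos at the shield stage that were pooled and dissociated, 2 from siblings (sibling 1 and sibling 2, whose genotype is labelled wild type) and 2 from embryos without maternal *rbm24a* (M*rbm24a* 1 and M*rbm24a* 2). Rbm24a is an RNA-binding protein of the germ plasm, and the study profiled single cells to see which cell populations its loss affects. The mothers of M*rbm24a* embryos were founder fish that carried an *rbm24a-RFP* knock-in with *cas9* under the oocyte promoter *zpc* and a transgene expressing *rbm24a* guide RNAs and BFP, and embryos with BFP and without Rbm24a-RFP were taken. An edit can therefore differ between eggs, and the embryos of a library were not kept apart. The values are unique molecular identifiers (UMIs) left after the estimated ambient RNA was subtracted, so they have decimals, and levels are given as CPM, the counts per 1000000 UMIs of the summed cells of a library.

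The cells were chosen by their values. A cell had at least 3000 UMIs, a value above 0.5 for *twist1a* and for at least 2 of *mespaa* (both entries of that symbol summed), *foxc1a*, *cxcl12a*, *aplnrb* and *pcdh10b*, and no value above 0.5 for *noto*, *sox32*, *krt92* or *frzb*. These genes are called gate genes, and their levels are described without a test. They stay in the genotype fits below, but no result is read for them. The sibling libraries gave 88 and 65 such cells and the M*rbm24a* libraries 56 and 95, where pairs of values always run from library 1 to library 2 and 4 values run from the siblings to M*rbm24a*. Of the 304 cells, 161 (52.96%) had all 6 gate genes, 56 had 5, 55 had 4 and 32 had 3, and no barcode among them was shared with another library, whereas 16 barcodes of the whole matrix were. The libraries held 40176506 to 61973441 UMIs in all, and the *twist1a* mesoderm cells 710380 to 1309790, which sets the precision of each level below.

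*rbm24a* itself was too low in these cells to check the genotype labels. It stood at 0.644 and 0 CPM in the sibling libraries and 1.21 and 0 CPM in the M*rbm24a* libraries, and 2 of the 304 cells had a value above 0.5.

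The gate genes differed in how fully they marked the cells. *twist1a* was present in each cell by the rule and stood at 576 and 407 CPM in the sibling libraries and 260 and 295 CPM in the M*rbm24a* libraries, against 21.8 to 36.7 CPM in the remaining cells. *cxcl12a*, which encodes a ligand of the Cxcr4 receptors, was the most abundant gate gene at 863 ± 160 CPM (SD, n = 4 libraries) and was found in 96.6% to 98.2% of the cells of a library. *aplnrb*, an Apelin receptor gene, was found in 85.3% to 93.2%, *mespaa* in 76.8% to 80.0%, *pcdh10b*, a protocadherin gene, in 67.9% to 83.0% and *foxc1a* in 64.2% to 83.1%. Both sibling levels of *twist1a* lay above both M*rbm24a* libraries, which is not read as a genotype difference, since this gene had chosen the cells.

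The label given to these cells, involuted lateral mesoderm, was checked against genes outside the gate. *hand2*, *nkx2.5* and *fli1a*, which mark lateral plate, cardiac and vessel precursors, were found in 0 of 304 cells, which allows a share of cells with a UMI of up to 0.987%. *tal1* was found in 1 cell and *lmo2* in 10 (3.29%), against 1.45% of 345 enveloping layer cells, a surface epithelium that should lack these genes. The 2 kinds of cell were not matched in depth, with medians of 14620, 15050, 11090 and 11280 UMIs in the *twist1a* mesoderm cells of the 4 libraries and 10920, 5359, 23570 and 20900 in the enveloping layer cells. The enveloping layer shares varied with the library, from 35.0% to 78.3% for *msgn1* and from 0% to 36.5% for *ripply1*. *gata5* was found in 46.7% of the cells against 21.4% of enveloping layer cells, *gata6* in 28.6% against 12.2%, and *drl*, a marker of the early lateral plate, in 49.0% against 16.8%. In the paraxial progenitor set described below, the shares were 34.6% for *gata5*, 8.04% for *gata6* and 49.45% for *drl*, so *drl* was not particular to the chosen cells. That set had *tal1* in 1.49% and *lmo2* in 6.55% of its cells, larger shares than in the *twist1a* mesoderm cells.

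The shares of paraxial genes spanned a wider range. *msgn1* was present in 91.1% of the cells against 49.3% of the enveloping layer cells, *ripply1* in 80.6% against 22.03%, *mespab* in 54.0% against 15.9%, *myf5* in 25.7% against 3.48% and *tbx6* in 21.4% against 4.06%. *msgn1*, *ripply1* and *mespab* were found in more cells than *gata5*, *gata6* and *drl*, and *myf5* and *tbx6* in fewer. In the paraxial progenitor set, which *msgn1* had chosen, *ripply1* was found in 34.4%, *mespab* in 48.1%, *myf5* in 14.4% and *tbx6* in 10.3%. *twist1b* was found in 0 cells, and *foxc1b* in 48 (15.8%) against 2.61%. *hand2* and *nkx2.5* were also found in 0 cells of the paraxial progenitor set and of the ventral margin set described below. *fli1a* was found in 1 cell of each, so the absence of these 3 genes cannot decide the label. The word lateral was not kept, since embryo position was not measured, and the cells are called by their first gate gene.

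**Figure D1:**
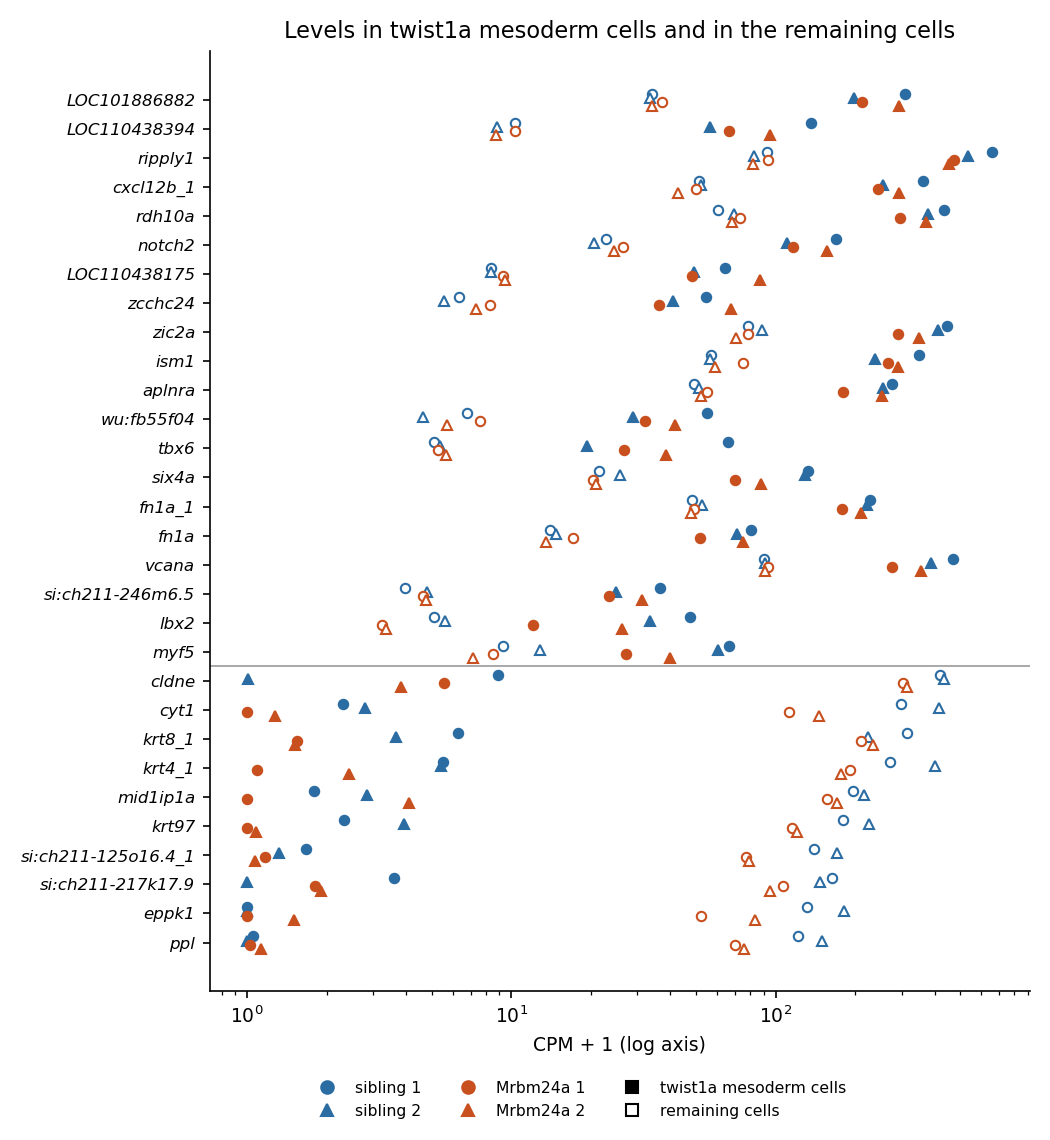
Levels (CPM + 1, log axis) of the 20 genes outside the gate with the largest ratio of *twist1a* mesoderm cells (filled) to the remaining cells (open) and, below the line, the 10 with the smallest; each point is 1 library. The filled points of *ripply1* lie between 453 and 661 CPM and the open points between 80.9 and 92.5.

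With the gate genes counted, 75 of 6831 genes (1.1%) were at least 2-fold higher and 139 (2.03%) at least 2-fold lower in the chosen cells of every library, which the choice of cells fixes for the gate genes. Outside the gate, 68 of 6820 genes (0.997%) were at least 2-fold higher in the *twist1a* mesoderm cells than in the remaining cells of the same library in each of the 4 libraries, and 135 (1.98%) were at least 2-fold lower. Ratios were taken as log2 of (CPM + 5), among genes with a mean of at least 10 CPM on either side. Since the cells were chosen by gene values, these contrasts are described and not tested.

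*ripply1*, which encodes a repressor that closes the presomitic programme when somites form, led the genes with a known role. It stood at 661 and 533 CPM in the sibling libraries and 472 and 453 CPM in the M*rbm24a* libraries, whereas the remaining cells had 80.9 to 92.5 CPM. The mean ratio was 5.77-fold (log2 ratio 2.53 ± 0.22, SD over 4 libraries), and every library of *twist1a* mesoderm cells lay far above its remaining cells.

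*tbx6*, a T-box factor of presomitic cells, stood at 65.2, 18.4, 25.7 and 37.5 CPM in the same order of libraries, with 4.1 to 4.63 CPM in the remaining cells. *ism1*, which encodes the secreted protein isthmin, stood at 347, 236, 265 and 289 CPM against 55.5 to 74.0 CPM. *myf5*, an early myogenic factor, stood at 65.6, 59.3, 26.2 and 38.7 CPM against 6.13 to 11.8 CPM. The spread of *tbx6* among libraries was wide, with sibling 1 high, while *ism1* varied little.

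The paraxial mesoderm list was the one with the most genes called higher. Of its 22 entries, 16 reached the level filter, 8 were called higher and 0 lower, and its median log2 ratio was 1.40, against -0.03 over all 6820 genes. Its most abundant members were *msgn1*, a presomitic bHLH factor, at 808 ± 175 CPM against 276 ± 38.04, *ripply1*, *ism1* and *pcdh8*, the paraxial protocadherin, at 211 ± 35.9 against 58.9 ± 10.4 (SD, n = 4 for each). *tbx6*, *myf5*, *mespab* and *her1* were the other called members. *tbx6l*, the T-box gene of the early presomitic margin, was at 62.1 ± 11.96 CPM against 44.9 ± 5.39, a log2 ratio of 0.42, and was not called. The gate holds *mespaa* and *foxc1a*, which act in the same mesoderm, so high paraxial genes may be partly set by the choice of cells. In the 67 chosen cells without *mespaa*, *msgn1* was at 267 CPM and *pcdh8* at 58.4, near the remaining cells. There *ripply1* at 386 CPM and *ism1* at 142 CPM stayed above the remaining cells.

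Migration and matrix genes formed a second group. *cxcl12b_1*, the entry of the second zebrafish Cxcl12 ligand, stood at 361 and 253 CPM in the sibling libraries and 242 and 293 CPM in the M*rbm24a* libraries, and at 41.7 to 51.2 CPM in the remaining cells. It was present in 88.5% of the cells. Both entries of the fibronectin gene were higher, *fn1a_1* at 208 ± 21.8 CPM against 48.5 ± 2.12 and *fn1a* at 68.7 ± 12.6 against 13.9 ± 1.62. *vcana*, which encodes the matrix proteoglycan versican, stood at 370 ± 79.8 CPM against 90.7 ± 1.16. Reads of 1 gene may be divided between entries that carry the same symbol, so each entry's level is a part of the gene's.

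The receptors of the chemokines went the other way. *cxcr4a* stood at 74.5, 95.9, 128 and 97.2 CPM in the *twist1a* mesoderm cells and at 321 to 356 CPM in the remaining cells, and was called lower. It is also listed as an endoderm marker, and the gate left out cells with the endoderm gene *sox32*. *cxcr4b* was at 138 ± 40.0 CPM against 325 ± 18.8, a log2 ratio of -1.25 that missed 2-fold in at least 1 library. In the matrix and migration list as a whole, 4 of 17 genes with a level were called higher and 1 lower, and the median log2 ratio was 0.55. Integrin genes were near the remaining cells, with *itga5*, the fibronectin receptor subunit, at 270 ± 19.97 CPM against 188 ± 13.6.

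The Apelin receptor gene *aplnra*, the paralog of a gate gene, was the called member of the lateral plate and cardiac list, of whose 19 entries 4 reached the filter. It stood at 275, 253, 180 and 252 CPM, and at 48.2 to 54.2 CPM in the remaining cells. It is not particular to mesoderm in these data, since the enveloping layer cells had 290 ± 91.3 CPM of it and a value above 0.5 in 79.1% of cells, against 76.3% of the *twist1a* mesoderm cells. The other 3 were *gata5* at 66.0 ± 19.9 CPM against 34.4 ± 2.28, *gata6* at 24.5 ± 5.81 against 8.15 ± 1.503 and *osr1* at 24.1 ± 10.9 against 8.92 ± 1.51. Of the blood and vessel list, 3 of 15 entries reached the filter and 0 were called, with *drl* at 95.3 ± 28.5 CPM against 31.7 ± 2.37. The median log2 ratio was 1.07 for the lateral plate and cardiac list and 1.19 for the blood and vessel list. Both lay near the 1.40 of the paraxial list, so the medians do not set the paraxial genes apart.

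Among the mesenchymal regulators, *snai1a*, which represses epithelial cadherin, stood at 568, 441, 453 and 488 CPM, above 188 to 215 CPM in the remaining cells, and was called higher. *cdh1*, the epithelial cadherin gene, was at 172 ± 19.9 CPM against 249 ± 15.2, and *cdh2*, the neural cadherin gene, at 101 ± 14.8 against 61.4 ± 5.99 and its second entry *cdh2_1* at 152 ± 22.1 against 88.2 ± 5.62. The 3 cadherin entries moved by less than 2-fold. In the whole list, 2 of 13 genes were called higher (*snai1a* and *pcdh8*), 0 were called lower, and the median was 0.03.

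Signalling genes were called at a few single points. *rdh10a*, the retinol dehydrogenase gene that acts in the first step of retinoic acid synthesis, stood at 432, 377, 294 and 369 CPM against 59.4 to 72.5 CPM, and its second entry *rdh10a_1* was also called. The remaining 5 genes with a level in the retinoic acid list were not called, among them *crabp2b*, a binding protein gene, at 363 ± 25.7 CPM against 408 ± 25.0, and *cyp26a1*, the breakdown enzyme gene, at 56.6 ± 9.56 against 60.0 ± 9.77. *notch2* stood at 169, 109, 116 and 156 CPM against 19.6 to 25.5 CPM, while *notch1a* was at 158 ± 8.55 against 126 ± 11.6 and *notch3* at 112 ± 13.3 against 125 ± 4.89. Within the Notch list, *notch2* and *her1* were called higher and *her3* and *her4.3* lower, of 15 genes.

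Ligand and target genes of other pathways were mostly near the level of the remaining cells. Of 14 FGF genes and 19 BMP genes, 0 were called, with median log2 ratios of 0.20 and -0.26. *id1*, a target of BMP signalling, was at 1672 ± 352 CPM against 3432 ± 474, and *chd*, the gene of the BMP antagonist Chordin, ranged from 320 CPM in sibling 2 to 804 CPM in sibling 1 against 445 to 511 CPM. Of 10 Nodal genes only *lft2* was called, and lower, at 2.20 ± 1.27 CPM against 17.6 ± 5.54. Of 14 Wnt genes, *fzd8b* and *rspo3* were called, both lower.

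Further genes from the leading 20 were *zic2a*, a zinc-finger factor also listed for ectoderm, at 373 ± 69.3 CPM against 78.3 ± 7.20, *six4a*, a homeobox gene, at 104 ± 30.9 against 21.1 ± 2.41, and *lbx2*, another homeobox gene, at 28.8 ± 14.8 against 3.32 ± 1.20. *zcchc24* was at 48.9 ± 14.3 CPM against 5.88 ± 1.20. The others carry no gene name. *LOC101886882* had the largest ratio of all, at 252 ± 56.1 CPM against 33.7 ± 1.65, followed by *LOC110438394*, a long non-coding RNA in RefSeq, at 87.7 ± 35.9 against 8.55 ± 0.87. *LOC110438175*, *wu:fb55f04*, a transcribed pseudogene in RefSeq, and *si:ch211-246m6.5* stood at 61.3, 38.4 and 28.0 CPM on average, against 7.89, 5.18 and 3.53.

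The 10 genes with the smallest ratios were those of the enveloping layer, and *krt92* of that layer was excluded by the gate. *cldne*, a claudin gene, stood at 7.87 and 0.00787 CPM in the sibling libraries and 4.58 and 2.81 CPM in the M*rbm24a* libraries, against 303 to 433 CPM in the remaining cells. The keratin genes *cyt1*, *krt8_1*, *krt4_1* and *krt97* had means of 0.844 to 2.60 CPM, the junction genes *ppl* and *eppk1* 0.05002 and 0.126 CPM, and *mid1ip1a* 1.43 CPM. *si:ch211-125o16.4_1* and *si:ch211-217k17.9* were at 0.310 and 1.08 CPM. All 12 enveloping layer markers with a level were called lower, and their summed level was 81.4, 39.3, 28.9 and 16.9 CPM in the 4 libraries against 1594 to 2745 CPM.

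Most markers of other cells were lower than or near the remaining cells, with *zic2a*, *foxa*, *mixl1* and *gata5* among those above them. *mixl1*, listed for endoderm as *gata5* is, stood at 36.7, 36.6, 29.3 and 46.1 CPM against 11.0 to 20.5 CPM and was not called. Of 8 endoderm markers, *sox17* and *cxcr4a* were called lower, and of 15 ectoderm markers *sox2*, *sox3* and *her3* were lower and *zic2a* higher. The gate left out cells with *sox32*, an endoderm gene, so low endoderm markers may be partly set by the choice of cells. *sox3*, a gene of the neural and early ectoderm, stood at 87.5, 192, 135 and 96.96 CPM against 332 to 445 CPM. Dorsal mesoderm markers gave 0 calls among 8, with *foxa* at 159 ± 24.0 CPM against 61.0 ± 6.28. Of 3 primordial germ cell markers with a level 0 were called, and *nanos3* was found in 21 cells (6.91%), a smaller share than the 20% of enveloping layer cells. Cell cycle genes were at the level of the remaining cells: of 13 mitosis genes and 14 DNA replication genes 0 were called, with median log2 ratios of 0.03 and -0.07. The 8 genes of the p53-type stress list with a level gave 0 calls, with a median of -0.35.

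**Figure D2:**
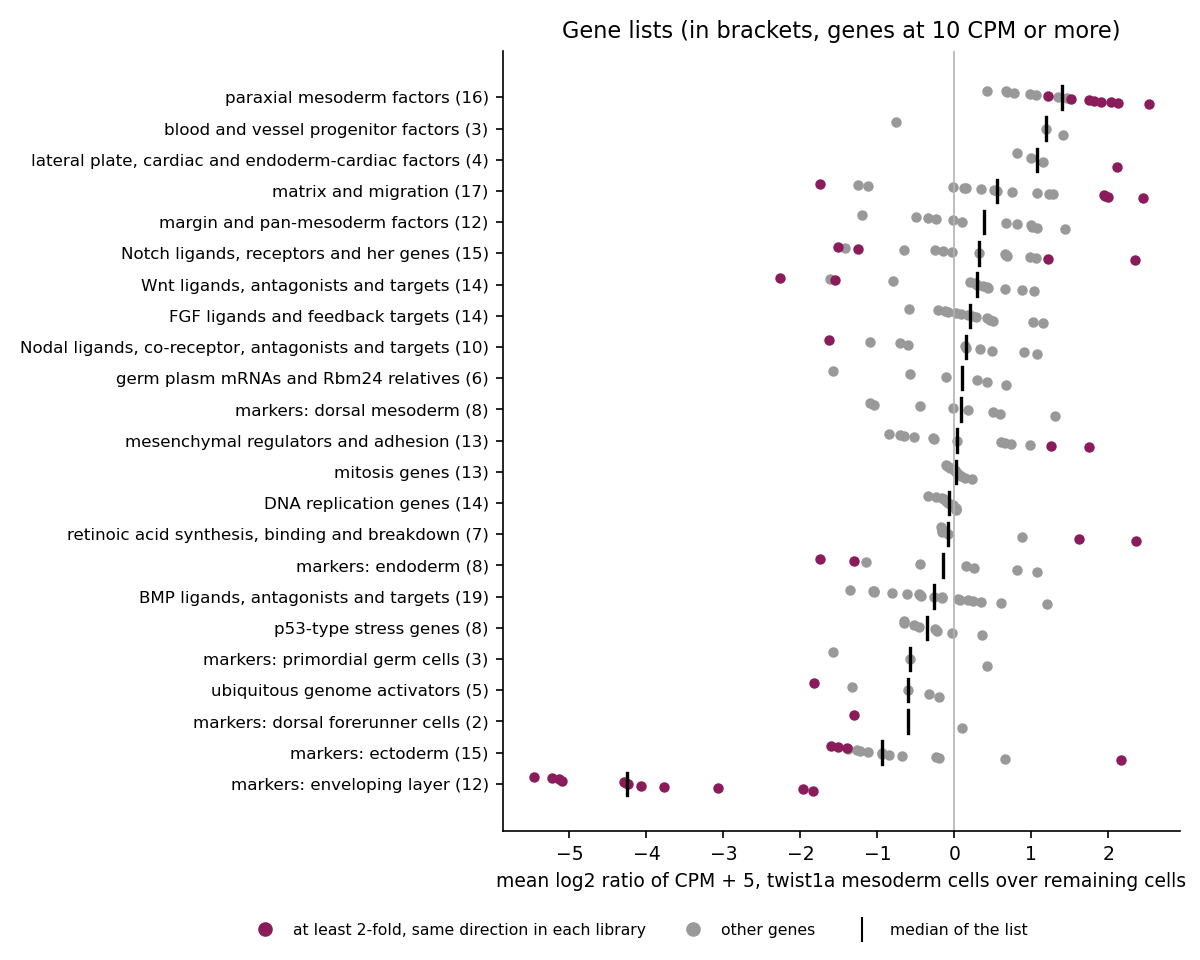
Mean log2 ratio of *twist1a* mesoderm cells over the remaining cells for each gene of the 23 lists that reached 10 CPM on either side (points; dark where at least 2-fold in the same direction in each of 4 libraries), with the median of each list as a bar. The paraxial list lies highest with a median of 1.40, followed by the blood and vessel list with 1.19 and the lateral plate and cardiac list with 1.07. The enveloping layer markers lie lowest with -4.25.

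The *twist1a* mesoderm cells were compared with the cells most like them. A paraxial progenitor set of 1007 other cells had *tbx6l* and *msgn1* above 0.5 and no *noto*, *sox32* or *krt92*, and 127 of the 304 *twist1a* mesoderm cells (41.8%) met that rule too. Between these groups, 20 of 6621 genes outside the gate (0.302%) were at least 2-fold higher in the *twist1a* mesoderm cells in each library and 8 (0.121%) lower.

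*ripply1* had the largest ratio in this comparison, with 72.7 to 108 CPM in the paraxial progenitor set, and the homeobox genes *irx1b* and *irx7* followed. *irx1b* stood at 111, 52.8, 84.0 and 113 CPM against 13.1 to 24.1 CPM in the paraxial progenitor set, and *irx7* at 358, 314, 278 and 340 against 75.9 to 108. *otx1a* was at 150 ± 37.5 CPM against 44.3 ± 15.9, and *tbx1*, a gene of the head and cardiopharyngeal mesoderm, at 30.1 ± 7.45 against 6.27 ± 2.09. *dhrs3b*, whose product reduces retinal, was at 88.6 ± 14.5 CPM against 25.7 ± 8.30, and *notch2* at 138 ± 29.4 against 46.0 ± 3.36.

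Of the 8 lower genes, *cdx1a* had the smallest ratio. *cdx1a*, a posterior homeobox gene, stood at 26.01 and 75.5 CPM in the sibling libraries and 31.1 and 49.5 CPM in the M*rbm24a* libraries, against 145 to 233 CPM in the paraxial progenitor set. *fgf24*, an FGF ligand gene, was at 17.6 ± 8.17 CPM against 65.6 ± 13.7, *prickle1b*, a planar polarity gene, at 44.0 ± 6.97 against 117 ± 16.6, *hes6* at 434 ± 115 against 970 ± 210, and *rbm38*, a relative of *rbm24a*, at 188 ± 27.4 against 437 ± 38.2. *tbx6l* was also lower, at 62.1 ± 11.96 CPM against 231 ± 38.7, but it had chosen the paraxial progenitor set. The groups of libraries did not overlap for any of these genes, which is largely set by the rule of 2-fold in each library that called them.

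The second set held 1513 cells of the ventral margin, with *eve1* and either *cdx4* or *cdx1a* above 0.5, and 138 of the *twist1a* mesoderm cells (45.4%) met its rule. Here 151 of 6712 genes (2.25%) were higher in the *twist1a* mesoderm cells and 25 (0.372%) lower. *ripply1* at 19.9 to 31.5 CPM, *ism1* at 14.4 to 18.8 and *aplnra* at 12.3 to 17.6 were low in the ventral margin set, and the libraries of the chosen cells lay above all of these values. Lower in the *twist1a* mesoderm cells were *msx1b* at 25.0 ± 13.1 CPM against 109 ± 39.5, *sox3* at 128 ± 47.2 against 468 ± 66.1, *her12* at 222 ± 133 against 763 ± 218 and *id1* at 1672 ± 352 against 4368 ± 884.

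Levels were also described by the number of gate genes found, which the rule itself uses. Cells with 1 or 2 gate genes are outside the chosen cells, and sums per group cannot tell a gradient from a mixture of cells. Among cells that met every other criterion and had *twist1a*, several genes outside the gate were higher with more gate genes found, in groups of 56, 48, 32, 55, 56 and 161 cells with 1 to 6 of them. *ripply1* was at 5.06, 28.5, 107, 399, 381 and 678 CPM in these groups, *msgn1* at 23.8, 84.0, 132, 317, 604 and 1096, and *rdh10a* at 16.0, 19.9, 74.6, 156, 228 and 512. *sox3* went down, from 507 and 621 CPM with 1 and 2 gate genes to 79.0 CPM with 6. *tbx6l* was at 12.2, 21.2, 39.98, 60.1, 61.0 and 64.8 CPM. The means of other genes followed no such order. *eve1*, a ventral margin gene, was highest with 3 gate genes at 203 ± 221 CPM, and *cdh2* was lowest with 3 at 32.1 ± 25.7 CPM (SD, n = 4). Both rested on few cells, 8, 4, 6 and 14 by library, and the libraries differed. The 4 cells of sibling 2 had 522 CPM of *eve1* and 0 CPM of *cdh2*, while M*rbm24a* 1 had 15.6 and 56.3 CPM. *ripply1* itself was slightly lower with 5 than with 4.

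The median depth of those groups was 14210, 12160, 7888, 8925, 13290 and 14060 UMIs, so the cells with 3 and 4 gate genes were the shallowest. The part of depth in these differences was not tested. Just outside the threshold, 48 cells with *twist1a* and 1 other gate gene had 83.1 CPM of *twist1a* and 606 CPM of *sox3*. Just inside it, the 32 cells with 3 gate genes had 130 CPM of *twist1a* and 268 CPM of *sox3*. Each cell on both sides carried *twist1a* by the rule, so its CPM depends on depth, and no difference in *twist1a* is read. The 306 cells with all gate genes but *twist1a* had 2245 CPM of *msgn1* and 117 CPM of *ripply1*.

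**Figure D3:**
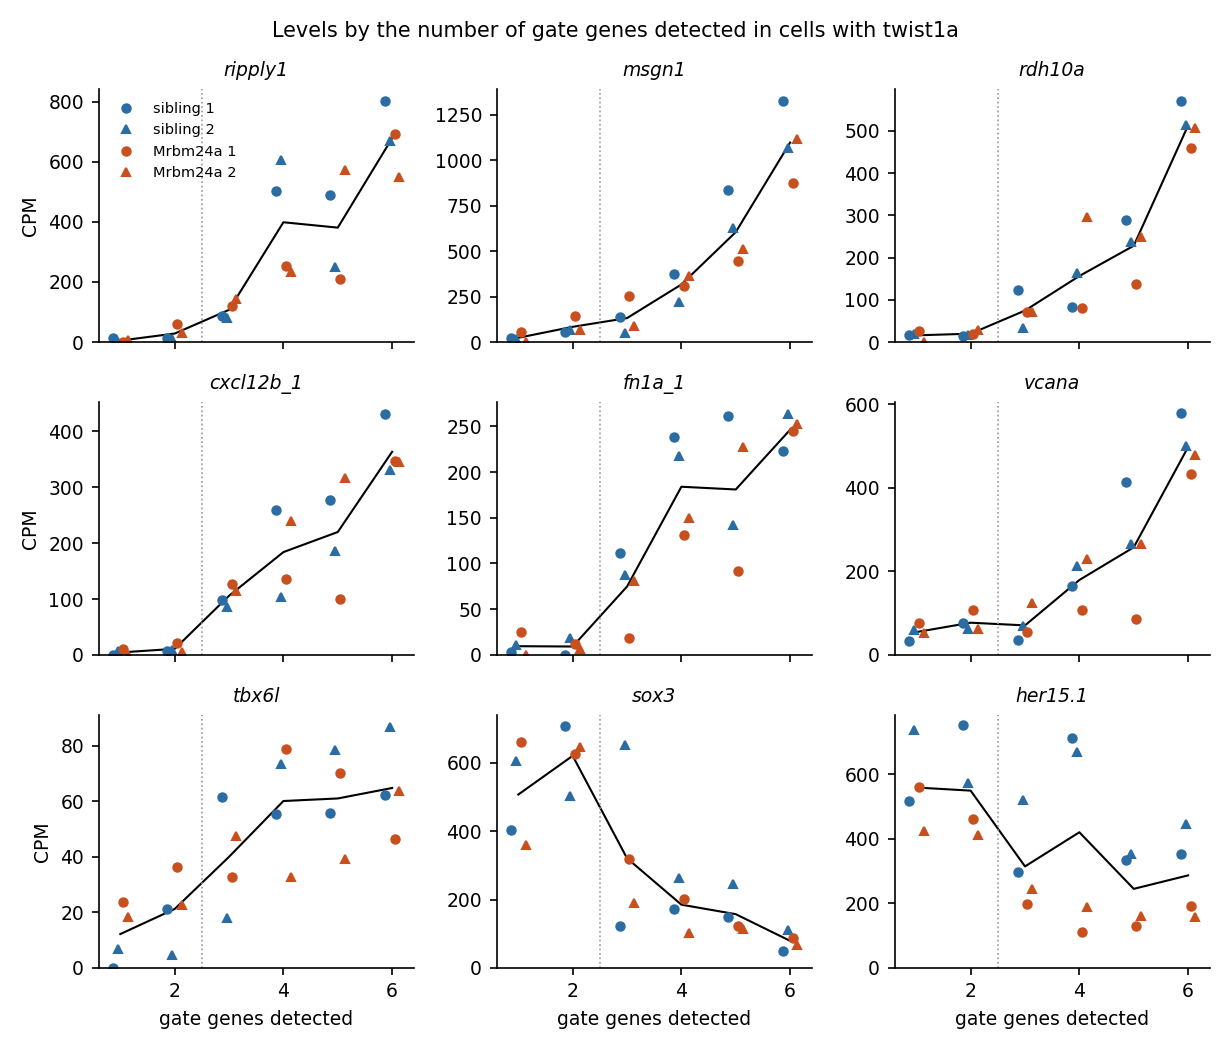
CPM of 9 genes outside the gate in cells with *twist1a*, by the number of gate genes found; points are libraries, the line is the mean of 4 libraries, and the dotted line marks the threshold between 2 and 3 gate genes. *ripply1* climbs to a mean of 678 CPM at 6 gate genes, while *sox3* goes down to 79.0 CPM.

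The cells were also split by *mespaa*, a gate gene, and the split is described without a test. The 237 cells with *mespaa* and the 67 without it had median depths of 13380 and 9585 UMIs, and the part of depth was not tested. The cells without it were 19, 13, 13 and 22 by library, so low levels in them rest on few UMIs. *rdh10a* was at 431 ± 77.0 CPM with *mespaa* and 104 ± 51.7 without, *pcdh8* at 247 ± 41.4 and 58.4 ± 24.8, and *tbx6* at 44.0 ± 26.6 and 6.92 ± 3.28. *sox2* was at 35.3 ± 12.5 CPM with *mespaa* and 123 ± 27.7 without. For these 4 genes, named after their values were seen, the difference was at least 2-fold in each library. *LOC101886882*, *spry1* and *notch2* also met that, all higher with *mespaa*. In the cells without *mespaa*, *tbx6* at 3.56 to 11.1 CPM and *spry1* at 0 to 10.5 CPM were among such low levels. Further genes missed 2-fold in at least 1 library, such as *msgn1* and *ripply1*, with smallest log2 ratios of 0.98 and 0.18. The share of cells with *mespaa*, 76.8% to 80.0%, was alike in all libraries.

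The share of *twist1a* mesoderm cells was compared between genotypes. It was 2.49% of 3534 cells in sibling 1 (exact Clopper-Pearson 95% interval 2.002% to 3.06%), 1.82% of 3567 in sibling 2 (1.41% to 2.32%), 1.65% of 3402 in M*rbm24a* 1 (1.25% to 2.13%) and 2.40% of 3952 in M*rbm24a* 2 (1.95% to 2.93%). The intervals cover counting error only. The genotypes overlapped, with means of 2.16% ± 0.47 and 2.03% ± 0.54 (SD, n = 2 each, exact permutation test, two-sided p = 0.667, where 0.333 is the smallest p that 2 against 2 allows).

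The number of shallow cells differs between libraries and bears on that share, since 0 and 740 cells of the sibling libraries and 259 and 192 cells of the M*rbm24a* libraries had under 1000 UMIs. Of cells with at least 3000 UMIs the share was 2.66%, 2.76%, 2.20% and 3.05% in that order. With each such cell thinned to 3000 UMIs it was 3.06%, 2.58%, 1.69% and 2.61%, for which M*rbm24a* 1 was the lowest library. The difference turned from -0.13 percentage points to 0.20 without sibling 1 and to 0.25 without M*rbm24a* 1.

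**Figure D4:**
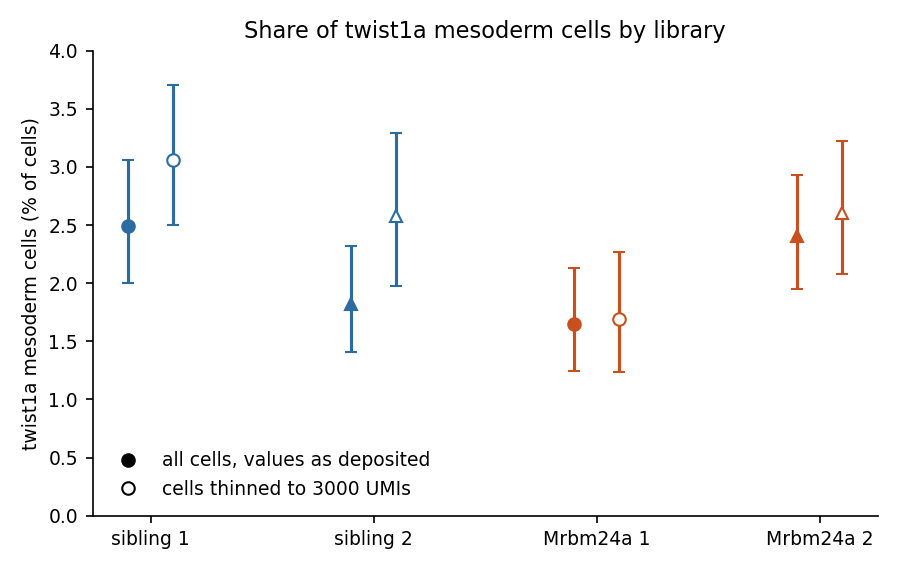
Share of *twist1a* mesoderm cells in each library (% of cells) with exact 95% intervals, for all cells as deposited (filled) and for cells thinned to 3000 UMIs (open). The filled points lie between 1.65% and 2.49%, and the intervals of siblings and M*rbm24a* overlap.

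Within the *twist1a* mesoderm cells, values were summed per library and tested between genotypes with edgeR's quasi-likelihood test and Benjamini-Hochberg adjustment. Of 6871 genes, 1 (0.0146%) was higher and 6 (0.0873%) were lower in M*rbm24a*, and 485 had an unadjusted p under 0.05. The remaining cells differed in the same direction for all 7 genes. The samples are separate libraries, but no label says whether their embryos came from separate clutches, so the spread may be partly technical.

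*akap12b_1*, an entry of the gene for the scaffold protein Akap12, stood at 145 and 223 CPM in the sibling libraries and 545 and 534 CPM in the M*rbm24a* libraries. It was higher in M*rbm24a* by a log2 fold change of 1.57 ± 0.17 (SE, edgeR adjusted p = 0.00289). The first entry of that gene, *akap12b*, stood at 1915, 2112, 1459 and 1625 CPM, so the smaller entry was the one that differed upward. The larger entry was lower in both M*rbm24a* libraries, so no rise of the whole gene is read from *akap12b_1*. In the remaining cells *akap12b_1* was at 163 and 188 CPM in siblings and 367 and 353 CPM in M*rbm24a*.

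*her15.1*, a hairy-related repressor gene activated by Notch, stood at 385 and 459 CPM in the sibling libraries and 164 and 175 CPM in the M*rbm24a* libraries. It was lower in M*rbm24a* by a log2 fold change of -1.31 ± 0.15 (SE, edgeR adjusted p = 0.00289). *LOC100534909*, an identifier that a newer RefSeq table gives to *her15.1*, stood at 478, 601, 282 and 240 CPM and was lower with an edgeR adjusted p of 0.0261. The 2 entries may share reads of near-identical copies and are counted here as uncertain single genes. In the remaining cells *her15.1* was at 581 and 635 CPM in siblings and 293 and 327 CPM in M*rbm24a*.

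*mespab*, a bHLH gene of the anterior presomitic mesoderm and close relative of the gate gene *mespaa*, stood at 181 and 116 CPM in the sibling libraries and 59.4 and 49.3 CPM in the M*rbm24a* libraries. Its log2 fold change was -1.49 ± 0.24 (SE, edgeR adjusted p = 0.0409), and both M*rbm24a* libraries lay below both sibling libraries. In the remaining cells it was at 27.8 and 30.4 CPM in siblings and 18.2 and 13.98 CPM in M*rbm24a*. Gate genes were in the fit, but they had chosen the cells, so no genotype difference is read from them. *twist1a* had 492 CPM on average in siblings and 278 in M*rbm24a*. The 2 *mespaa* entries had 145 and 247 CPM in siblings and 64.5 and 168 in M*rbm24a*.

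The other 3 lower genes are not on the mesoderm lists. *mt-rnr1*, the small mitochondrial ribosomal RNA, stood at 1058, 1373, 669 and 563 CPM (log2 fold change -0.98, edgeR adjusted p = 0.0409). *LOC110439627* stood at 253, 131, 54.3 and 26.1 CPM with a log2 fold change of -2.35, an edgeR adjusted p of 0.0261, and the remaining cells had 299, 567, 62.4 and 40.4 CPM. It was the gene of the 7 that DESeq2 did not call (DESeq2 adjusted p = 0.861, where adjusted p over the 11 alternatives ran from 4.52e-38 to 0.881). *si:dkey-67c22.2_1*, an entry of the gene now named *sona*, had a log2 fold change of -3.08 (edgeR adjusted p = 0.0261) that rested on 47 and 30 UMIs in the sibling libraries and 1 and 6 in the M*rbm24a* libraries.

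**Figure D5:**
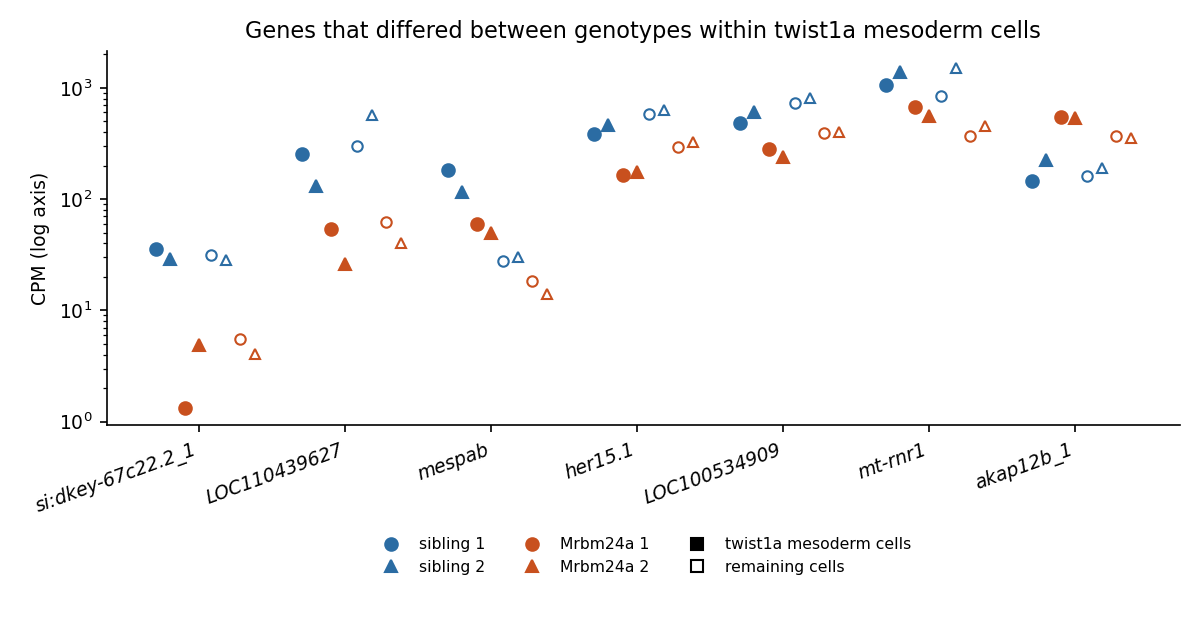
CPM (log axis) of the 7 genes that differed between genotypes within *twist1a* mesoderm cells (filled), with the remaining cells of the same library (open); each point is 1 library. *akap12b_1* lies at 534 and 545 CPM in M*rbm24a* and at 145 and 223 CPM in siblings, and the other 6 genes are lower in M*rbm24a*.

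Of the paraxial list, 1 of 17 genes tested (*mespab*) was lower and 0 higher, and the median log2 fold change was -0.70, against 0.00 over the 6864 genes outside the gate. Of the Notch list, which does not hold *her15.1*, 0 of 14 passed, with a median of -0.77. The lists share *her1*, *her7*, *dld* and the entries of *dlc*, with log2 fold changes from -1.25 to -0.70, so their medians are not separate. The nearest to the threshold was *her1*, a segmentation clock gene in both lists, at 177 and 245 CPM in siblings and 109 and 92.7 CPM in M*rbm24a* (edgeR adjusted p = 0.0503). *dld*, a Delta ligand gene, was at 169 and 214 CPM in siblings and 92.6 and 115 in M*rbm24a* (edgeR adjusted p = 0.203), and *myf5* at 65.6 and 59.3 against 26.2 and 38.7 (edgeR adjusted p = 0.428). In the remaining cells *her1* averaged 81.19 CPM in siblings and 43.75 CPM in M*rbm24a*, *dld* 85.52 and 55.17, and *myf5* 10.02 and 6.813. For each of these genes, both M*rbm24a* libraries lay below both sibling libraries there too. None of them passed the interaction test described below. Of the matrix list 0 of 16 passed, with a median of -0.17, and of the 13 mitosis genes 0 passed, with a median of 0.02.

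The *twist1a* mesoderm cells of M*rbm24a* embryos were shallower, with medians of 11090 and 11280 UMIs against 14620 and 15050 in siblings, and 48.2% and 47.4% of them had all 6 gate genes against 59.1% and 56.9%. Enveloping layer markers summed to 81.4 and 39.3 CPM in siblings and 28.9 and 16.9 CPM in M*rbm24a*. The part of these measures in the genotype differences was not tested. The count of genes rested on single libraries, since 0 genes passed without M*rbm24a* 2 (321 at an unadjusted p under 0.05), 351 without sibling 1 and 56 without sibling 2, and with limma or with at least 4 gate genes only *akap12b_1* and *her15.1* passed.

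Whether the genotype effect differed between *twist1a* mesoderm cells and the remaining cells was tested as an interaction with library as a block. Of 16225 genes, 4 (0.0247%) had a more positive effect in the *twist1a* mesoderm cells and 13 (0.0801%) a more negative one in edgeR, and 16 of the 17 lie outside the gate. *capn8*, a calpain protease gene, stood at 566, 652, 288 and 408 CPM in the *twist1a* mesoderm cells and at 125 to 163 CPM in the remaining cells. Its genotype effect differed by -0.79 ± 0.10 on the log2 scale (SE, edgeR adjusted p = 4.62e-11). *ripply1*, *vcana* and *rdh10a* were also among the 13, with differences of -0.41, -0.50 and -0.46 and edgeR adjusted p-values of 0.039, 0.00771 and 0.028, but they passed in only 1, 5 and 3 of 10 alternatives.

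That count depended on the tool. DESeq2 and limma called 0 genes, with 131 and 906 at an unadjusted p under 0.05, RLE scaling gave 5 more positive and 8 more negative, and leaving out M*rbm24a* 1 gave 9 and leaving out M*rbm24a* 2 gave 27.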

How the data were processed

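Before deposit, the authors trimmed reads (Trimmomatic), made a UMI matrix (Cell Ranger, whose version is not given in the sources used here), subtracted ambient RNA (DecontX), dropped called doublets (Scrublet) and took out barcodes with outlying totals. What the authors deposited are estimated counts, decimal and unscaled. GRCz10 is the build in the submitters' processing notes. The study collected cells in batches, and no source used here assigns libraries to them.

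Cells were chosen in Python 3.11.15 by the thresholds given above, without a further doublet caller. The members, gene lists and tests were chosen with earlier results of these data known. Sums per library were rounded, and edgeR 4.0.16 was run under R 4.3.3 with filterByExpr, TMM factors and a threshold of 0.05, and the scripts were tested on simulated data. Alternatives were DESeq2 1.42.0, limma 3.58.1 on log2(CPM + 1), RLE factors, no filter, stricter gates, thinning, the replicate number as a block and each library left out. Where leaving out a library leaves 1 for a genotype, its spread is taken from the other genotype. Named genes were the gate genes, the 20 highest and 10 lowest ratios, the genes past the genotype threshold, the most abundant members of each list and *rbm24a*; other genes, such as those in the comparison with the paraxial progenitor and ventral margin sets, those divided by *mespaa* and those near the threshold, were named after their values were seen. List symbols were matched through RefSeq GRCz12tu synonyms, and 4 list entries matched none. Sequences were not used here.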

Additional observations from a re-analysis of the deposited data

Results flagged for a closer look

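For 16 genes outside the gate, the genotype effect in *twist1a* mesoderm cells differed from that in the remaining cells by the interaction test in edgeR with Benjamini-Hochberg adjustment, given here as the difference of log2 fold changes. The effect was more negative in the *twist1a* mesoderm cells for *capn8* (-0.79), *cst3*, a cystatin gene (-0.61), *si:dkey-85k7.7* (-0.47), *irx7* (-0.52), *vcana* (-0.50), *LOC101884857* (-1.11), *tp53inp2* (-0.41), *lye* (-1.35), *rdh10a* (-0.46), *apoc1* (-0.28), *ripply1* (-0.41) and *her2* (-0.45).

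It was more positive for *mt-rnr1* (0.42), *admp* (0.65), *akap12b_1* (0.48) and *phf20l1* (0.82). For *mt-rnr1* this was a smaller fall, with log2 ratios of M*rbm24a* over siblings of -0.975 in the *twist1a* mesoderm cells and -1.51 in the remaining cells. For *apoc1*, named above, the more negative effect was a smaller rise, with log2 ratios of 0.162 and 0.372. *admp*, a BMP-type ligand gene of the organizer, stood at 99.0 and 104 CPM in the *twist1a* mesoderm cells of siblings and 140 and 129 CPM in those of M*rbm24a*, while the remaining cells went from 334 and 348 CPM to 284 and 271 CPM. *cst3* stood at 462 and 426 CPM in siblings and 344 and 294 CPM in M*rbm24a*, while the remaining cells had 206 to 226 CPM in every library. *lye* is an enveloping layer gene, at 53.5 and 23.1 CPM in siblings and 19.0 and 6.89 CPM in M*rbm24a*. None of the 16 passed in DESeq2 or limma, where 0 genes passed and 131 and 906 had an unadjusted p under 0.05, and *tp53inp2* passed in 0 of 10 alternatives.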

How the results depend on the processing

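The difference in the share of cells changed direction with at least 1000 UMIs (0.146 percentage points) and with no exclusion of *noto*, *sox32*, *krt92* or *frzb* (2.72), and lay between -0.51 and 0.248 with a library left out. The number of genes that differed between genotypes, 7, was 2 with limma, 2 with at least 4 gate genes, 42 with no filter on low counts and 0 to 351 with a library left out. Same-numbered libraries had a correlation of deviations of 0.0223 over 6871 genes. Crossed numbers gave -0.0223, a mirror value that 2 libraries per genotype fix in advance. This single value cannot settle whether replicate numbers pair the samples, and the replicate block gave 102 genes. The number of genes whose effect differed from the remaining cells, 17, was 0 with DESeq2, 0 with limma, 11 with no filter, 10 with at least 4 gate genes and 9 to 27 with a library left out. The causes were not tested. Of 77 alternative values for the 7 genotype genes, 57 passed and 20 did not, and of 160 for the 16 interaction genes 66 passed and 94 did not, with 0 changes of direction. The 68 genes higher than in the remaining cells became 36 (33 shared) with each cell scaled to the same total and 109 (68 shared) without M*rbm24a* 1. Depth limits genes under 10 CPM, since 710380 UMIs make 1 UMI about 1.41 CPM.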

Other observations

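Cells kept out of the *twist1a* mesoderm group by 1 criterion were not empty of its genes. Another 1450 cells met the gate apart from carrying *noto*, *sox32*, *krt92* or *frzb*, and had a median of 27620 UMIs, 117 CPM of *twist1a* and 201 CPM of *ripply1*; 1127 of them carried *sox32*, 945 *frzb*, 812 *noto* and 63 *krt92*. A further 32 cells met it with 1000 to 3000 UMIs and had 1005 CPM of *twist1a* and 723 CPM of *ripply1*, against 425 and 798 CPM in the 14 chosen cells with 3000 to 4000 UMIs. The rule asks for *twist1a* in each cell, so its CPM is largely set by the rule and the depth, with a median of 1955 UMIs in these 32 cells. Only *ripply1*, outside the gate, is read here. The paraxial progenitor rule was met by 39.8%, 55.4%, 37.5% and 36.8% of the chosen cells, siblings first, and the ventral margin rule by 39.8%, 55.4%, 42.9% and 45.3%.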
